A study of Mus musculus with 5 samples.

Results

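The cytokines of the type 2 immune response and genes tied to NKT2 cells were described here as a set of 9 genes: the transcription factor gene Gata3, the cytokine genes Il4, Il5, Il9, Il10 and Il13, the receptor gene Il17rb, and the myeloid and lymphoid cell genes Plac8 and Ly6c2. They were chosen by name, out of 20022 genes with a named probe, and found through the RefSeq transcript each probe is annotated with. Of these 9 genes, 8 had a probe and 5 were above background on every array. Ly6c2 had no probe annotated to its transcripts and was not analysed here.

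The study measured thymic natural killer T (NKT) cells of the mouse, a lineage of T cells whose receptor reads lipids on CD1d. Mice were of the C57BL/6 background, and CD3e+ cells that bound a CD1d tetramer were sorted after T-cell enrichment from 10 pooled thymi per sample. There were 2 samples from IL15-/- mice (IL15ko), which lack interleukin-15, and 3 from wild-type (wt) mice, each on 1 Agilent 1-colour array. No drug or other agent was given, as far as the labels say, and age was not given in the sources used here.

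Thymic NKT cells divide into subsets that resemble helper T cells. NKT1 cells express T-bet and make interferon-gamma, NKT17 cells express RORgt and make IL-17, and NKT2 cells express high levels of PLZF and of GATA3 and make IL-4 and IL-13. GATA3 binds to and opens the chromosomal cluster that holds Il4, Il13 and Il5. IL-4 made by thymic NKT2 cells is known to act on neighbouring developing CD8 T cells and on medullary stromal cells, and IL-17RB, a chain of the receptor for IL-25, marks NKT2 and part of the NKT17 cells in mice.

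Levels below are a probe's processed signal as a multiple of the 75th percentile of its array, so that a value of 1 is a fairly bright probe. Differences are log2 values, IL15ko minus wild-type, with limma's moderated standard error (SE), and p-values are limma's, adjusted by the Benjamini-Hochberg method over all 11999 genes tested, with a threshold of 0.05. Levels of different probes cannot be compared with each other. The share of probes well above background was 45.2% on IL15ko 1 and 33.9% on IL15ko 2, the dimmest array, against 44.6% to 49.6% on the wild-type arrays. All 8 listed T and NKT cell genes, Cd3e among them, were above background on all 5 arrays. Of 8 genes of mast cells, basophils, eosinophils and type 2 innate lymphoid cells, which also make type 2 cytokines, 7 were above background on no array. The exception was Il1rl1, whose log2 difference was 0.33 ± 0.26 (adjusted p = 0.442). The summed level of the 8, 0.0578 to 0.0757 in IL15ko and 0.0336 to 0.0543 in wild-type samples, includes 7 probes at background and gives no order between groups. All 3 tested of 5 NK cell genes fell in IL15ko, with a summed level of 2.59 to 3.43 in IL15ko and 14.3 to 15.6 in wild-type samples, and Ncr1 was above background on no array. These receptors are also found on NKT1 cells, and their part in the results below was not tested. None of the tested genes of B cells (2), regulatory T cells (3), plasmacytoid dendritic cells (4) or double-positive thymocytes (1) was called, and Rag1 and Cd8a were above background on no array. Some of these markers did give signal, with Siglech and Bst2 of plasmacytoid dendritic cells and Dntt of double-positive thymocytes above background on all 5 arrays. The summed level of the plasmacytoid dendritic cell list was 32.6 to 43.0 in IL15ko and 33.1 to 50.5 in wild-type samples. Siglech alone made 30.1 and 40.6 of it in IL15ko 1 and 2, and 30.5 to 47.7 in wild-type samples. The part of this list in the results below was not tested. Both tested B-cell genes were higher in both IL15ko samples than in any wild-type sample. The log2 difference was 0.92 ± 0.24 for Cd79b (adjusted p = 0.089) and 1.11 ± 0.42 for Blk (adjusted p = 0.173), while Ms4a1, Cd79a and Pax5 were above background on no array. The summed level of the B-cell list was 0.201 to 0.286 in IL15ko and 0.117 to 0.146 in wild-type samples, and its part in the rises below was not tested. In such sorted samples, fewer cells of a subset and less RNA per cell cannot be told apart.

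Of the 5 members above background, 3 rose in NKT cells of IL15ko mice: Il13, Il17rb and Plac8. Il4 was higher in both IL15ko samples than in any wild-type sample without passing the test, and Gata3 showed no separation of the groups. A rise was called for 3.73% of all tested genes, a fall for 3.58% and either for 7.31%, and 0 of the 5 members fell by limma, all 5 differences being above 0. The groups did not overlap for 4 of the 5 members, with IL15ko higher, against 25.1% of all tested genes with IL15ko higher, 22.1% with IL15ko lower and 47.2% in either direction. The median log2 difference of the 5 was 0.66, against 0.01 for all tested genes. All 3 calls rest on few arrays. Each was lost when any 1 of the 3 wild-type arrays or IL15ko 1 was left out. With IL15ko 2 left out, the call of Il17rb held and those of Il13 and Plac8 did not. Calls over all tested genes moved as well. Without wild-type 1, 2 or 3, 1, 37 and 356 genes were called higher and 8, 66 and 395 lower. Counts in the lists below with a wild-type array left out are to be read against these totals. An exact permutation test on 1 gene cannot go below a two-sided p of 0.1 with this number of arrays.

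**Figure D1:**
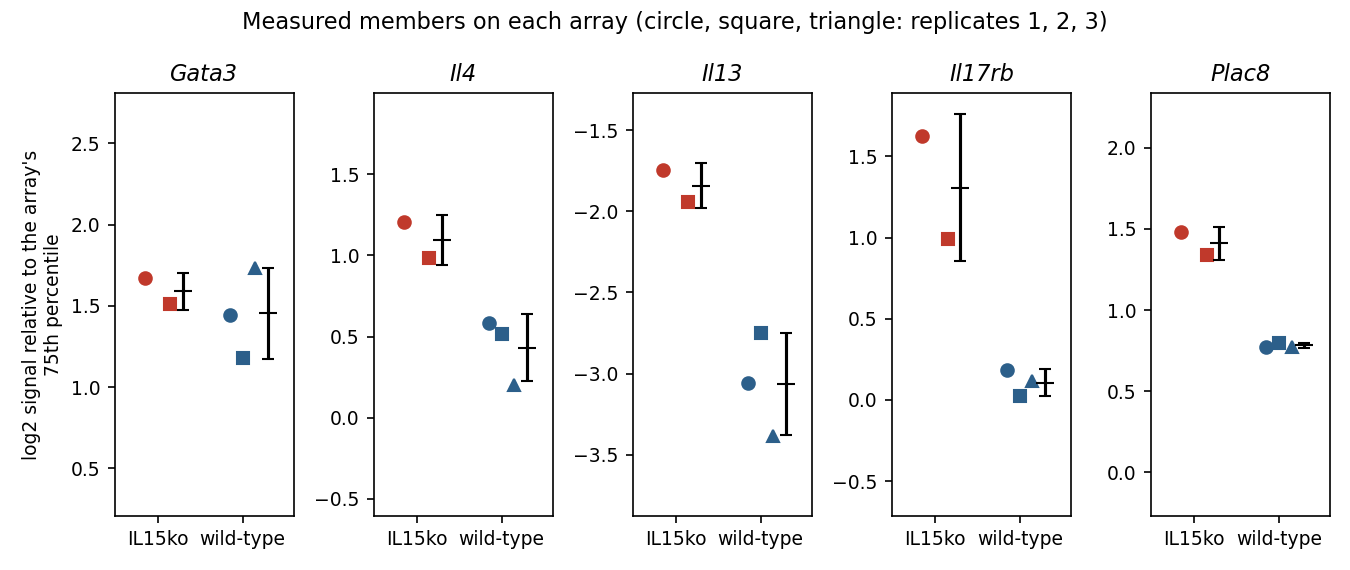
Log2 signal relative to the array's 75th percentile (vertical axis, each panel spanning the same range) for the 5 members above background, with IL15ko samples in red and wild-type samples in blue. Black bars show mean and SD of each group. IL15ko points lie above every wild-type point for Il4, Il13, Il17rb and Plac8, and the groups overlap for Gata3.

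IL-13 is the type 2 cytokine that acts on epithelium, smooth muscle and macrophages. Il13 stood at 0.299 and 0.261 times the array's 75th percentile in IL15ko 1 and 2, against 0.12, 0.149 and 0.0959 in wild-type 1, 2 and 3. Both IL15ko values were thus well above the highest wild-type value after scaling. Unscaled, Il13 read 115 intensity units on IL15ko 2, against 132 to 188 on the wild-type arrays. The 75th percentile was 440 units on IL15ko 2 and 885 to 1957 on the wild-type arrays. Unscaled signals of Il4, Il17rb and Plac8 on IL15ko 2 were likewise below those on every wild-type array. The scaled difference of Il13 was 1.22 ± 0.22 on the log2 scale (2.33-fold higher, 95% confidence interval 1.59 to 3.43, adjusted p = 0.0386). The SD of the log2 values was 0.14 in IL15ko (n = 2) and 0.32 in wild-type samples (n = 3). Leaving out single arrays gave differences of 1.06 to 1.38. The adjusted p was 0.109 and 0.136 with IL15ko 1 or 2 left out, and 0.147, 0.0751 and 0.0509 with wild-type 1, 2 or 3 left out.

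IL-4 is the founding cytokine of the type 2 response, a growth and switch factor for B cells and an inducer of its own producing T cells. Il4 was measured by 1 probe printed in 10 spots. It stood at 2.3 and 1.98 times the 75th percentile in IL15ko 1 and 2, against 1.5, 1.43 and 1.15 in wild-type 1, 2 and 3. The groups did not overlap, IL15ko 2 lying above wild-type 1, the highest wild-type sample. The log2 difference was 0.66 ± 0.17 (1.58-fold, 95% confidence interval 1.17 to 2.15) and did not pass the threshold after adjustment in limma (unadjusted p = 0.0114, adjusted p = 0.0873). The SD of log2 signal among the 10 spots of an array was 0.0451 to 0.168, against an SD of 0.15 among IL15ko samples (n = 2) and 0.20 among wild-type samples (n = 3). Il4 passed in 2 of 17 other ways of processing the data, and its difference lay between 0.55 and 0.77 in all 17.

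The remaining cytokines gave no measurable signal. IL-5 drives eosinophils, IL-9 mast cells, and IL-10 restrains inflammation. The probes of Il5, Il9 and Il10 were above background on none of the 5 arrays. The single spot of Il5 read 3.99 and 3.70 intensity units in IL15ko 1 and 2, against 4.28, 3.29 and 3.50 in wild-type 1, 2 and 3, where the dimmest probe called above background on the same arrays read 10.9 to 15.9. The spot of Il9 read 5.95 and 3.27 in IL15ko 1 and 2, against 3.94, 4.53 and 3.40 in wild-type samples. None of the 10 spots of Il10 was above background on any array, the brightest reading 4.97 in IL15ko and 10.2 in wild-type samples. Such values have no order between groups, so no fold is given and a difference in these 3 genes was not detectable at this signal.

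**Figure D2:**
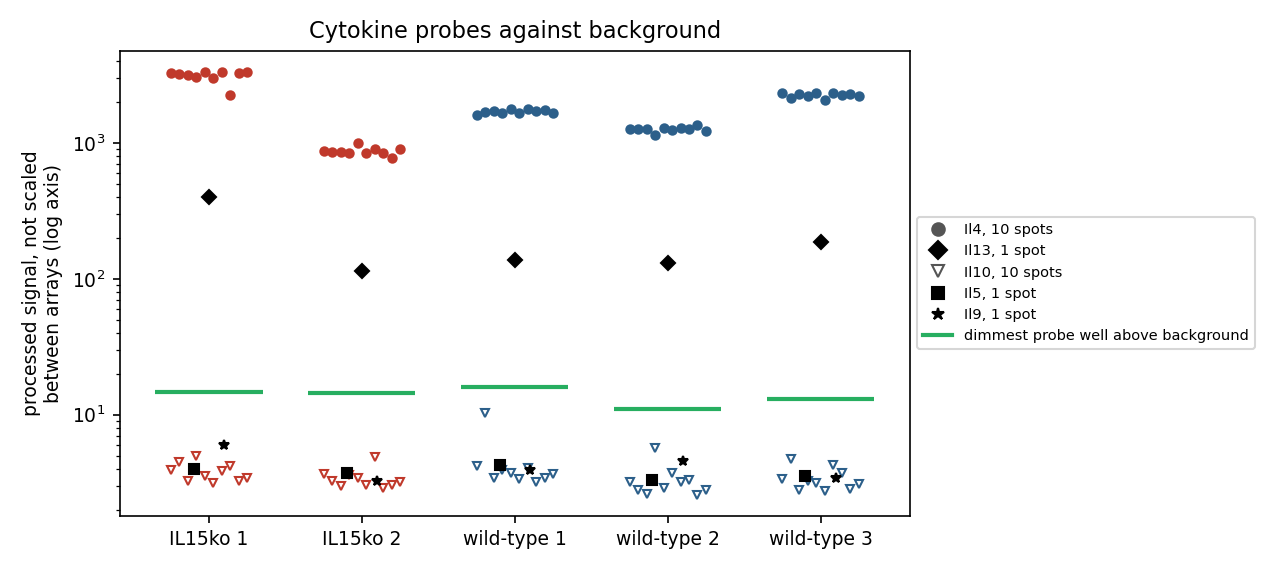
Processed signal (log axis, not scaled between arrays) of every spot of the 5 cytokine genes on the 2 IL15ko and 3 wild-type arrays, with a green line at the dimmest probe above background on each array. Il4 and Il13 lie above the line and all spots of Il5, Il9 and Il10 below it.

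Il4, Il13 and Il5 lie side by side on mouse chromosome 11 and share control elements, among them a locus control region inside Rad50. In the RefSeq annotation of GRCm38.p6 the protein-coding genes follow in the order Septin8, Kif3a, Il4, Il13, Rad50, Il5, Irf1 and Slc22a5. Of these neighbours, Septin8, a cytoskeletal septin gene, rose 2.13-fold (log2 difference 1.09 ± 0.19, adjusted p = 0.0349). It stood at 0.897 and 0.792 times the 75th percentile in IL15ko 1 and 2, against 0.451, 0.42 and 0.326 in wild-type 1, 2 and 3. The log2 difference of Kif3a, a kinesin gene, was 0.70 ± 0.22 (adjusted p = 0.125) and that of Rad50, a DNA repair gene, 0.35 ± 0.14 (adjusted p = 0.2), with -0.31 on a second probe. On the other side of Il5, Irf1, an interferon-induced factor, was 1.70-fold lower (log2 difference -0.77 ± 0.14, adjusted p = 0.0426), and the log2 difference of Slc22a5, a carnitine transporter gene, was 0.92 ± 0.27 (adjusted p = 0.108). Genes above background thus differed in sign along the cluster, with Il13 and Septin8 higher and Irf1 lower. Of the 3 other genes listed as neighbours, which lie outside this stretch, Csf2 was above background on no IL15ko array and is given below, and Il3 and P4ha2 were above background on no array. Of the 6 tested neighbours, 1 rose and 2, Csf2 among them, were called lower, against 3.73% and 3.58% of all tested genes. With either IL15ko array left out 1 was called lower and 0 higher. With wild-type 1 or 2 left out 0 were called, and with wild-type 3 left out 1 in each direction. The gene called lower in these fits was Csf2, whose call is not read as a fall. Irf1 did not pass with any array left out, and it passed in 5 of 17 alternatives.

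**Figure D3:**
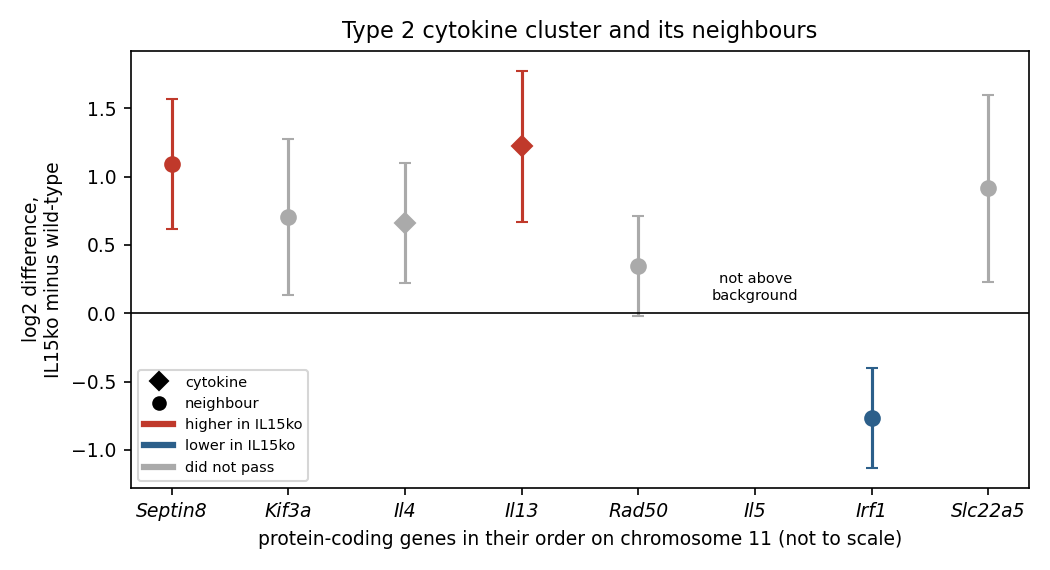
Log2 difference, IL15ko minus wild-type, with its 95% confidence interval, for Il4, Il13 and Il5 and their neighbours in gene order. Red marks genes called higher (Septin8 and Il13), blue the gene called lower (Irf1) and grey genes that did not pass. Il5 was not above background.

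The promoters of the 3 clustered cytokine genes, 250 bases before to 50 bases after the outermost annotated start, are shown because 2 of these genes were measured and 1 gave no signal above background in the same samples. The promoter of Il17rb is shown beside them as that of a gene that rose outside the cluster. Capitals mark letters that GATA factors prefer, GATA preceded by A or T and followed by A or G, searched on both strands, and sequences and coordinates are those of RefSeq on GRCm38.p6.
Il13 promoter, GRCm38.p6 chr11:53634653-53634952, minus strand: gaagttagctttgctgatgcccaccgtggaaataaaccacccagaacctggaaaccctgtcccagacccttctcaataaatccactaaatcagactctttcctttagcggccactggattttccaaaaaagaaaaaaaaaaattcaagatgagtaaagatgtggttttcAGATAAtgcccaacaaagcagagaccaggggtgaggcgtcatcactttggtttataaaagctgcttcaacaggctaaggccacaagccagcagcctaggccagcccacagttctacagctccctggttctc
Il4 promoter, GRCm38.p6 chr11:53618616-53618915, minus strand: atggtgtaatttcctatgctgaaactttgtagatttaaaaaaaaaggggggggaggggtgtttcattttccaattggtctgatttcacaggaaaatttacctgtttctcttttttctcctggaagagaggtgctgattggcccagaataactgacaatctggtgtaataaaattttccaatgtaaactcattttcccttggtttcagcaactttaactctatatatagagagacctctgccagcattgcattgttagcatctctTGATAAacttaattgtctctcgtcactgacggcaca
Il5 promoter, GRCm38.p6 chr11:53720544-53720843, plus strand: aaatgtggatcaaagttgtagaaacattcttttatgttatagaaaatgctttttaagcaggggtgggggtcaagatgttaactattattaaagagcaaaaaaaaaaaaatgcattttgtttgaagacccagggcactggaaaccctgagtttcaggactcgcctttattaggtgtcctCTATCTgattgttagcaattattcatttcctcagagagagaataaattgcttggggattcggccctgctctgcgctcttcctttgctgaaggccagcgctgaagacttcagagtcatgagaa
Il17rb promoter, GRCm38.p6 chr14:30008847-30009146, minus strand: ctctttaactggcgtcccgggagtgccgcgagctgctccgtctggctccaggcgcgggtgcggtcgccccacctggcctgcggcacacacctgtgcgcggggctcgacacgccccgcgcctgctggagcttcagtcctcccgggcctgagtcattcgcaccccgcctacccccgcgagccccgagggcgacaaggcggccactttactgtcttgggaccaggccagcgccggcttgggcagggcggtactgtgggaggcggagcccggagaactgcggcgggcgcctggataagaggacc

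A GATA match was present once in each of the 3 cytokine promoters, at bases -81 to -76 from the start in Il13, at -72 to -67 on the reverse strand in Il5 and at 15 to 20, inside the transcribed part, in Il4. The promoter of Il17rb held no match in this window. Such a match occurred in 29.8% of 32851 RefSeq promoter windows of the same length. Il5, at background, and Il13, above it, therefore did not differ in whether these letters were present. The NFAT letters GGAAAA occurred 4 times in the Il4 promoter, 1 time in that of Il13 and 0 times in that of Il5, against at least 1 match in 23.4% of all windows. A STAT6 motif, TTC and GAA with 4 bases between them, occurred once among these 4 promoters, in Il4, where it overlaps an NFAT match, against 6.95% of all windows. The AP-1 letters TGANTCA occurred once, in Il17rb, against 7.81%. Matches are descriptions of letters and were not tested for binding. Of the 9 genes, 8 had a promoter in the table used, Il10 being the one without.

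Il17rb encodes the chain of the IL-25 receptor that gives it its specificity. Its brighter probe stood at 3.09 and 1.98 times the 75th percentile in IL15ko 1 and 2, against 1.14, 1.02 and 1.08 in wild-type 1, 2 and 3. The wild-type samples were tight and the IL15ko samples apart, with IL15ko 1 the higher. The log2 difference was 1.20 ± 0.22 (2.30-fold higher, 95% confidence interval 1.57 to 3.37, adjusted p = 0.0398), with an SD of 0.45 in IL15ko and 0.08 in wild-type samples. It was 0.88 without IL15ko 1 (adjusted p = 0.0662) and 1.52 without IL15ko 2 (adjusted p = 0.0453). With wild-type 1, 2 or 3 left out the adjusted p was 0.141, 0.13 and 0.0742. A dimmer probe of the same transcript gave levels of 0.254 and 0.157 in IL15ko and of 0.0888, 0.127 and 0.0922 in wild-type samples. It had a difference of 0.98 ± 0.28, which did not pass when every probe was fitted on its own (adjusted p = 0.109), though its groups did not overlap either.

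**Figure D4:**
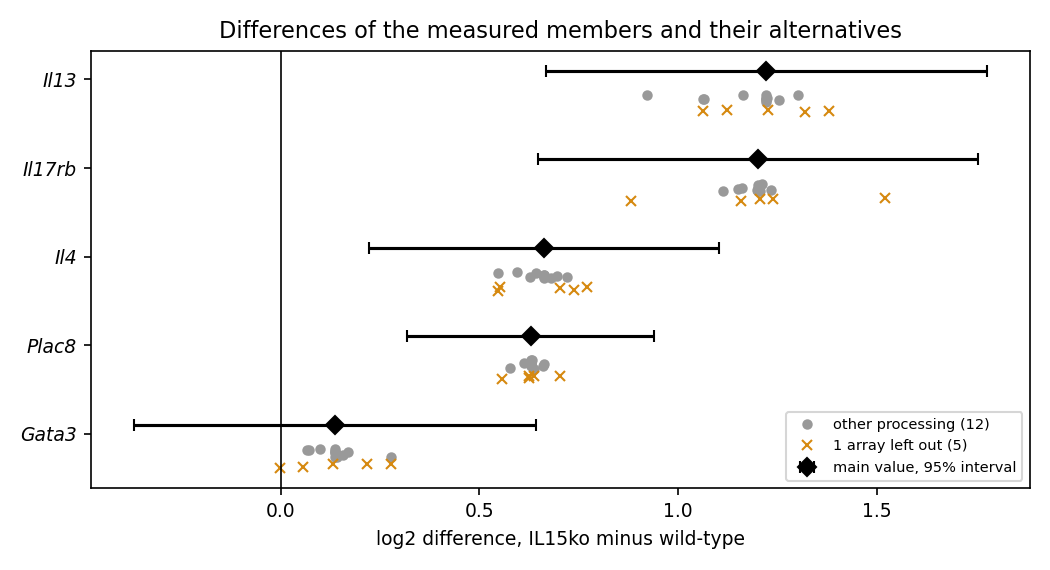
Log2 difference, IL15ko minus wild-type, of the 5 members above background (diamonds, with 95% confidence intervals), under 12 other ways of processing (grey) and with 1 array left out (crosses). All values for Il13, Il17rb, Il4 and Plac8 lie right of 0, while those of Gata3 range from -0.00049 to 0.28.

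The partners of IL-17RB and other surface receptors found on type 2 cells were taken as a list of 16 genes, all of them tested. Not all of these receptors are particular to type 2 cells, so the counts are not read as those of type 2 markers. In IL15ko, 5 rose, 0 fell and 11 did not pass, Il1rl1 among the last. Over all tested genes, 3.73% rose and 3.58% fell. The median log2 difference of the list was 0.29, against 0.01 for all tested genes. The 5 were the chemokine receptor genes Ccr7 and Ccr4, the last a receptor of type 2 helper cells, Slamf6, a SLAM-family receptor gene used in NKT selection, Il6ra, the IL-6 receptor, and Icos, a costimulatory receptor gene. Ccr4 stood at 0.417 and 0.332 times the 75th percentile in IL15ko 1 and 2, against 0.167, 0.162 and 0.185 in wild-type samples (log2 difference 1.12 ± 0.16, adjusted p = 0.0231). Il6ra was 2.53-fold higher (adjusted p = 0.0167) and Icos 1.96-fold higher (adjusted p = 0.0179). Il17ra, which encodes the chain that IL-17RB pairs with, had a log2 difference of -0.95 ± 0.31 (adjusted p = 0.125), opposite in sign to that of Il17rb. Izumo1r, a folate receptor-like gene, had one of 0.65 ± 0.18 (adjusted p = 0.0987), the chemokine receptor gene Ccr8 one of -0.48 ± 0.19 (adjusted p = 0.18) and Crlf2, which encodes the TSLP receptor chain, one of -0.28 ± 0.17 (adjusted p = 0.354). Leaving out IL15ko 1 or 2 gave 3 and 2 rises, and leaving out wild-type 1, 2 or 3 gave 0, 0 and 5.

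Gata3, the transcription factor that commits T cells to the type 2 fate and that all T cells need in the thymus, stood at 3.18 and 2.85 times the 75th percentile in IL15ko 1 and 2, against 2.72, 2.27 and 3.33 in wild-type 1, 2 and 3. The highest value belonged to a wild-type sample, so the groups overlapped. The log2 difference was 0.14 ± 0.20 (adjusted p = 0.683), and its 95% confidence interval of -0.37 to 0.64 does not exclude a change of up to 1.56-fold upward. Il13 rose with no call in Gata3, but whether the differences of these genes differ from each other was not tested.

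Of 14 listed transcription factors that promote type 2 cytokine genes, 13 were tested, 3 rose, 0 fell and 10 did not pass. Among all tested genes, 3.73% rose and 3.58% fell. The median log2 difference of the 13 was 0.30. Irf4, needed for IL-4 production by helper T cells, stood at 0.365 in both IL15ko samples, against 0.108, 0.118 and 0.111 in wild-type samples (3.25-fold higher, adjusted p = 0.008). Zbtb16, which encodes PLZF, stood at 8.03 and 9.75 in IL15ko, against 3.34, 3.31 and 2.76 in wild-type samples (adjusted p = 0.0164). Tcf7, which encodes TCF-1, an activator of Gata3 in helper T cells, rose 2.14-fold (adjusted p = 0.023). Its relative Lef1 had a log2 difference of 1.01 ± 0.23 (adjusted p = 0.0673). Batf, an AP-1 family factor gene, had one of 0.36 ± 0.12 (adjusted p = 0.14), Ikzf1, which encodes Ikaros, one of 0.41 ± 0.14 (adjusted p = 0.136) and Nfatc1, an NFAT gene, one of -0.52 ± 0.18 (adjusted p = 0.141). Second probes gave the opposite sign for Ikzf1 (-0.59) and for Nfatc1 (0.24). Leaving out IL15ko 1 or 2 gave 2 and 1 rises in this list, and leaving out wild-type 1, 2 or 3 gave 0, 1 and 4.

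Factors that oppose type 2 cytokine genes moved in both directions. Of 8 listed, 7 were tested, 2 fell, 1 rose and 4 did not pass, with a median log2 difference of -0.40. The shares over all tested genes were 3.58% lower and 3.73% higher. Tbx21, which encodes T-bet, the factor of the NKT1 subset, stood at 1.65 and 2.06 in IL15ko, against 6.47, 6.23 and 6.11 in wild-type samples (3.40-fold lower, adjusted p = 0.00894). Id2, an inhibitor of E proteins, was 1.74-fold lower (adjusted p = 0.0316). Sox4, which restrains GATA3 in helper T cells, was 2.39-fold higher (adjusted p = 0.0343). Its second probe gave a log2 difference of 0.19. Runx3, which silences Il4 in helper type 1 cells, had a log2 difference of -0.80 ± 0.17 (adjusted p = 0.0549), Bcl6 one of -0.40 ± 0.23 (adjusted p = 0.325), Hlx one of -0.17 ± 0.45 (adjusted p = 0.823) and Zfpm1, which encodes a GATA cofactor, one of -0.03 ± 0.15 (adjusted p = 0.908). With either IL15ko array or wild-type 3 left out, 1 fall and 0 rises were called, and with wild-type 1 or 2 left out 0 of these genes were.

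Plac8, which encodes a small cysteine-rich protein of blood cells, had the smallest difference of the 3 members that rose and the smallest spread among wild-type samples of the 5 measured members (SD of log2 values 0.01, against 0.10 among IL15ko samples). Its brighter probe stood at 2.8 and 2.53 times the 75th percentile in IL15ko 1 and 2, against 1.71, 1.74 and 1.71 in wild-type 1, 2 and 3. The log2 difference was 0.63 ± 0.12 (1.55-fold higher, 95% confidence interval 1.25 to 1.92, adjusted p = 0.0466). The call was lost whichever of the 5 arrays was left out, with adjusted p = 0.0994 and 0.11 for IL15ko 1 and 2 and 0.205, 0.171 and 0.0694 for wild-type 1, 2 and 3, while the difference stayed between 0.56 and 0.70. The second, dimmer probe stood at 0.201 and 0.139 in IL15ko, against 0.129, 0.145 and 0.14 in wild-type samples. On that probe the groups overlapped, IL15ko 2 lying within the wild-type range, and the log2 difference was 0.28 ± 0.20 (adjusted p = 0.413 with every probe fitted on its own).

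Ly6C, the surface antigen encoded by the near-identical genes Ly6c1 and Ly6c2, which neighbour each other on chromosome 15, marks monocytes and a part of memory T cells. No probe was annotated to Ly6c2, and probe sequences were not used here, so whether a probe for Ly6c1 also binds Ly6c2 was not tested. Ly6c1 fell. It stood at 10.1 and 12.4 times the 75th percentile in IL15ko 1 and 2, against 22.6, 24 and 30.7 in wild-type 1, 2 and 3. The log2 difference was -1.19 ± 0.19 (2.28-fold lower, adjusted p = 0.0315), with that of the second probe at -1.88 ± 0.29. Of 16 listed Ly6 family genes, 15 had a probe and 11 were tested. Of the 11, 1 fell, Ly6c1, and 0 rose, against 3.58% and 3.73% of all tested genes. With wild-type 3 left out 2 were called lower, Ly6c1 and a gene above background on only 1 of the 2 IL15ko arrays. With any other array left out the call of Ly6c1 was lost, and no other gene of the list was called. The median log2 difference of the 11 was -0.15, the value of a gene above background on 1 of the 2 IL15ko arrays. Over the 7 genes above background on all 5 arrays the median log2 difference was 0.28, so neither is read as a change of the family. Lypd6b had one of 0.89 ± 0.18 (adjusted p = 0.0519), Ly6e, a broadly expressed member, one of 0.56 ± 0.16 (adjusted p = 0.0996), Ly6k one of 0.48 ± 0.29 (adjusted p = 0.342) and Ly6g5b one of -0.15 ± 0.12 (adjusted p = 0.44). Of 9 genes of monocytes, macrophages and granulocytes, 5 were tested, and Lyz2 and Adgre1 were above background on no array. The median log2 difference of the 5, -1.03, is the value of S100a8, which entered the test through 2 wild-type arrays alone. S100a8 was above background on no IL15ko array, so this median is not read as a fall. S100a9 was called lower but was above background on the 3 wild-type arrays only, so that it is given here as such and not as a fall. Csf1r, the receptor gene of monocyte growth factor, had a log2 difference of -2.29 ± 0.47 without overlap of the groups (adjusted p = 0.0513) and of -0.81 to 0.28 on its other probes, and Itgam, which encodes an integrin of myeloid and NK cells, one of 0.70 ± 0.40 (adjusted p = 0.313). The summed level was 5.26 to 11.2 in IL15ko and 4.78 to 6.49 in wild-type samples, and Itgam alone made 4.4 and 10.5 of it in IL15ko 1 and 2. The part of these genes in the level of Ly6c1 and Plac8 was not tested.

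Among receptors and signalling proteins of the type 2 cytokines, those called were lower in IL15ko. Of 16 listed, 12 were tested, 0 rose, 3 fell and 9 did not pass, and the median log2 difference was 0.04. The shares over all tested genes were 3.73% higher and 3.58% lower. Il4ra, the chain through which IL-4 and IL-13 signal, stood at 0.034 and 0.0502 in IL15ko, against 0.127, 0.107 and 0.143 in wild-type samples (3.02-fold lower, adjusted p = 0.0237), with a log2 difference of -1.59 ± 0.23 and one of -0.67 in its second probe. Its log2 difference was -0.85 with normexp and quantile normalization (adjusted p = 0.00761) and -0.58 with normexp and percentile scaling (adjusted p = 0.437). Both chains of the IL-10 receptor fell, Il10rb 2.23-fold (adjusted p = 0.028) and Il10ra by 3.46 ± 0.19 on the log2 scale (adjusted p = 0.00578), while Il10 itself was at background. Under these settings the log2 difference of Il10ra was -2.55 (adjusted p = 9.26e-05) and -2.37 (adjusted p = 0.0801). For Jak3, the kinase on the common gamma chain, the log2 difference was 0.54 ± 0.12 (adjusted p = 0.0627), for Il2rg, that chain, it was 0.46 ± 0.21 (adjusted p = 0.233), for Tyk2, a Janus kinase, -0.93 ± 0.37 (adjusted p = 0.187) and for Stat5a 0.31 ± 0.15 (adjusted p = 0.262). For Stat6, the factor that IL-4 activates, it was 0.02 ± 0.16 (adjusted p = 0.961), with values down to -0.68 on its other probes. Il13ra1, Il13ra2 and Il5ra were above background on no array. With either IL15ko array left out 1 fall was called, and with wild-type 1, 2 or 3 left out 0, 1 and 2 were.

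Of 14 other cytokines of type 2 responses, 6 were tested and 7 were above background on no array, among them Il6, Il33 and Areg. Of the 6, 2 rose, 3 did not pass and 1, Csf2, was called lower from IL15ko signals at background. A rise was called for 3.73% of all tested genes and a fall for 3.58%. The median log2 difference was 0.48 with Csf2 and Ccl1 included, and 0.98 over the 3 genes above background on all 5 arrays. Il21, a helper T-cell cytokine gene, stood at 0.0751 and 0.0509 in IL15ko, against 0.0263, 0.033 and 0.0248 in wild-type samples (2.22-fold higher, adjusted p = 0.0495), and Ccl17, which encodes a ligand of CCR4, was 1.97-fold higher (adjusted p = 0.0187). Both differences were smaller under another background correction. With normexp and quantile normalization the log2 difference was 0.51 for Il21 (adjusted p = 0.0394) and 0.25 for Ccl17 (adjusted p = 0.167). Computed from the authors' deposited table it was 1.06 for Il21 (adjusted p = 0.0505) and 0.64 for Ccl17 (adjusted p = 0.116), and there 0 of the 6 genes were called in either direction. Csf2, which encodes GM-CSF, was above background on all 3 wild-type arrays and on neither IL15ko array, and it entered the test through the wild-type arrays alone. Its wild-type log2 levels of -5.24 to -5.21 lie below the dimmest probe above background on IL15ko 2, at -4.92, so no fold is given and its call is not read as a fall. Its log2 difference was 0.17 with normexp and percentile scaling, a setting chosen after seeing the data, and its call was lost in the authors' deposited table. Ccl1 had a log2 difference of -1.62 ± 0.68 (adjusted p = 0.202). Like Csf2, it was above background on all 3 wild-type arrays and on neither IL15ko array, so no fold is given for it. The log2 difference of Il24 was 0.39 ± 0.32 (adjusted p = 0.465) and that of Lif 0.56 ± 0.73 (adjusted p = 0.642). With either IL15ko array left out 0 were called higher and 1 lower. With wild-type 1 or 2 left out 0 were called, and with wild-type 3 left out 1 was called higher and 2 lower. The genes called lower in these fits were Csf2 and Ccl1, and neither call is read as a fall.

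**Figure D5:**
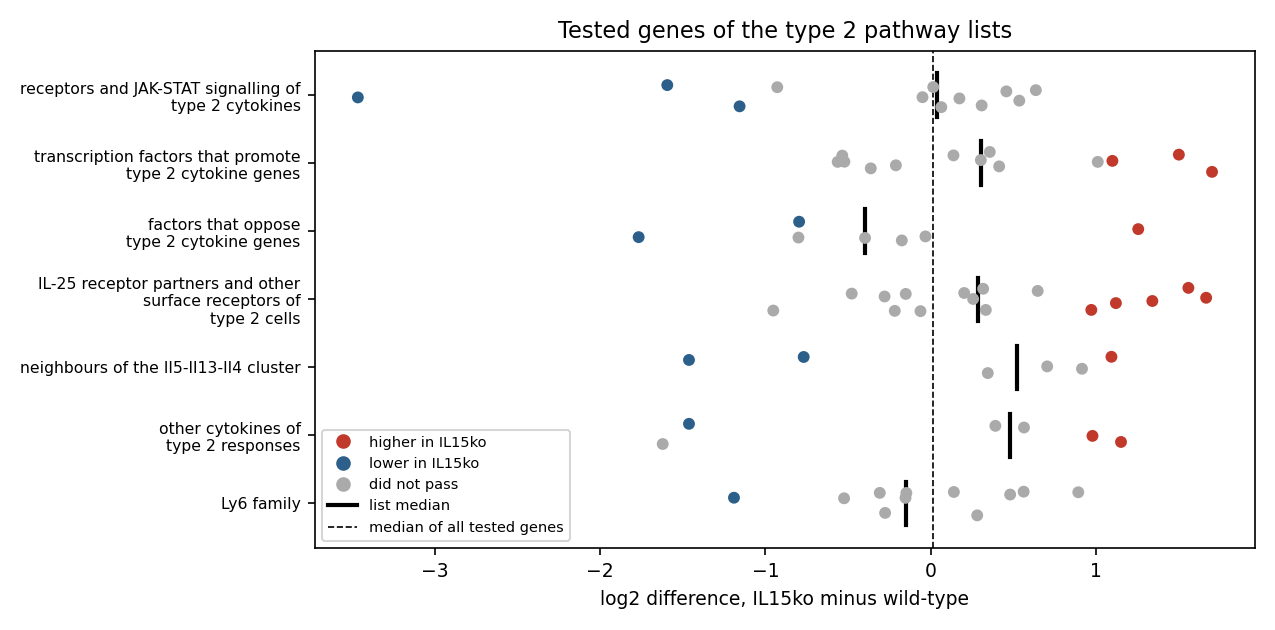
Log2 difference, IL15ko minus wild-type, of each tested gene of 7 lists around the type 2 pathway, red where higher, blue where lower and grey where the test was not passed. Black bars are list medians, from -0.40 for opposing factors to 0.53 for the cluster's neighbours. The dashed line is the median of all tested genes at 0.01. Csf2 and Ccl1, above background on no IL15ko array, enter the medians, and their points are not read as falls. Over genes above background on all 5 arrays, the median was 0.70 for the neighbours, 0.98 for the other cytokines and -0.60 for opposing factors.

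Genes whose pattern over the 5 arrays lay closest to that of each called member were found by the root mean square distance of the centred log2 values. For Il13 they were Ralb (distance 0.051), Specc1 (0.0617) and Art2b (0.0764). For Il17rb they were Kcnmb4 (0.081), Armcx6 (0.0928) and Cdc6 (0.1), and for Plac8 they were Btla (0.0228), Fbxw8 (0.0289) and Gpx1 (0.031). Among the members themselves Il4 and Plac8 lay closest to each other (0.129) and Gata3 and Il13 farthest apart (0.651). Over 5 arrays such distances are descriptions only.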

How the data were processed

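The deposited scanner files give a linear intensity per spot, written by Feature Extraction 10.7.1.1 per the file headers, with the background subtracted and no scaling between arrays. limma is named, without settings, in the submitters' processing notes. The authors' deposited value table holds linear intensities of the same spots. It follows the spot median minus local background and is not scaled between arrays, with medians of 24.4 and 15.7 in IL15ko 1 and 2 and of 25.2, 22.6 and 26 in wild-type 1, 2 and 3. What the software added to dim spots stays unknown. All 5 arrays share 1 slide, so slide and scan were not blocks. The header names mm9, and no gene coordinates are given on it.

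The values used here were log2 of the processed signal minus the array's 75th percentile taken over the 18529 probes that exceeded background on every array. Control spots did not enter, and 0 spots were saturated. Repeated spots of a probe were averaged, leaving out those flagged by the software as outliers. Where every spot of a probe on an array was flagged, which for a probe of 1 spot means that spot, the flagged values were used. A probe counted as above background where at least 50% of its spots did. Accessions, without versions, matched to NCBI's annotation of GRCm38.p6 gave a single symbol to 26425 of 55681 probes and several to 0, and 29256 had none. Each gene was represented by its brightest probe, and the 11999 genes above background on at least 2 arrays entered 1 linear model (limma 3.58.1, R 4.3.3, lmFit then eBayes) with genotype as its single term and Benjamini-Hochberg adjustment. Degrees of freedom were 3 residual and 2.26 prior, and the procedure was tested on simulated data. There it recovered 32.8% of 2-fold, 80.6% of 4-fold and 92.4% of 16-fold changes, and 2.84% of its calls were unchanged genes. A gene that did not pass is thus not shown to be unchanged. In the measured data, a total of 448 genes were called higher and 429 lower in IL15ko.

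The labels do not say that replicates came from separate pools of mice, so p-values rest on differences among these samples that could be technical. Wild-type 1 and 2 were the closest pair of arrays, with a robust SD of 0.17 between them. It was 0.34 and 0.38 from wild-type 1 and 2 to wild-type 3, and 0.38 between the IL15ko arrays. Whether wild-type 1 and 2 are independent samples was not tested, and their average was used in 1 of the alternatives. The number of arrays limits the precision. The 9 genes and the lists were chosen with earlier results of these data known. Named were all 9 genes, every called gene of each list with up to 4 that were not called by smallest p, and 3 genes nearest each called member in pattern. Stat6, the cell type markers and genes listed as being at background were named beyond that, after their values were seen. No label pairs samples of equal number. Alternatives in scaling, background correction, source of values, probe filter, probe choice, variance prior and arrays left out are described in the closing section.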

Additional observations from a re-analysis of the deposited data

How the results depend on the processing

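Leaving out 1 array moved the number of members called higher from 3 to between 0 and 1, the number of genes called higher from 448 to between 1 and 356, and the number called lower from 429 to between 8 and 395. The members called higher were 0 without the filter on dim probes, 0 with wild-type 1 and 2 averaged, 0 with the replicate number as a block and 0 with normexp (offset 50) followed by 75th percentile scaling, a setting chosen after seeing the data. They numbered 2 to 4 in the other settings. Genes called higher and lower were 0 and 3 without the filter, 26 and 53 with wild-type 1 and 2 averaged, 130 and 231 with the replicate block, 0 and 1 with normexp and percentile scaling, 818 and 617 with normexp (on median signals, since the files hold no mean signal column) and quantile normalization, 809 and 686 with a trended, robust variance prior, and 702 higher with a filter for signal on all 5 arrays (476 lower). No member was called lower in any of the 17 alternatives. Gata3 ranged from -0.00049 to 0.28 with 1 array left out, the lowest value without wild-type 2. Genes named only as cell type markers were left out of the next count. Of 811 values for 48 other named genes of the pathway lists, 789 kept their sign. The others were Zfpm1 (0.00065 with the percentile over all probes, 0.0023 with quantile normalization, 0.0199 with normexp and quantile normalization, 0.0661 with the replicate block, -0.0999 to 0.0661 with 1 array left out), Stat6 (-0.0137 with normexp and quantile normalization, -0.00258 with normexp and percentile scaling, -0.0162 with the deposited table, -0.031 with wild-type 1 and 2 averaged, -0.115 to 0.146 with 1 array left out), Hlx (0.52 with normexp and percentile scaling, 0.0753 with the deposited table, -0.72 to 0.37 with 1 array left out), Lif (-0.0702 with the replicate block, -0.0702 to 1.18 with 1 array left out), and, with normexp and percentile scaling, Ccl1 (0.0897) and Csf2 (0.165). Il13 was called in 8 of 17 alternatives, Il17rb in 9, Plac8 in 4, Il4 in 2 and Gata3 in 0. The cause of these changes was not tested. Deviations from the group mean correlated at -0.13 between IL15ko 1 and wild-type 1 and at 0.19 between IL15ko 2 and wild-type 2. Between IL15ko 1 and wild-type 3, which differ in number, the correlation was 0.23. The deviations of 2 IL15ko arrays mirror each other, so their correlations have forced opposite signs and cannot decide whether samples were paired. Slide as a block was not run, because all arrays share 1 slide. Il5, Il9 and Il10 gave no value to vary.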
